A study of Mus musculus with 2 samples.

Results

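SREBP, the sterol regulatory element-binding proteins, are membrane-bound transcription factors that switch on the genes for making cholesterol and unsaturated fatty acids. When sterol is scarce, the escort protein SCAP carries the SREBP precursor from the endoplasmic reticulum to the Golgi, proteases release its active part, and that part enters the nucleus; when sterol is plentiful, the INSIG proteins hold the complex back. In macrophages the pathway sits beside sterol uptake, storage and export, and it is known to respond to Toll-like receptor signals.

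The 33 genes described here are the enzymes, regulators and sterol carrier of that pathway, given as a fixed list of symbols and found through the gene symbol in the transcript tables. All 33 matched a gene, out of 55536 genes in the tables, of which 22028 are annotated as protein-coding, and all 33 belong to that class. They form 4 role groups: 8 genes of the mevalonate and isoprenoid steps, 11 of the steps from squalene to sterol, 6 regulators and carriers, and 8 of fatty acid synthesis.

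The series holds 1 condition. Bone-marrow-derived macrophages of C57BL/6J mice were given Lipid A, the part of lipopolysaccharide that activates TLR4, at 100 ng/ml for 12 h, kept without it for 12 h after a wash, and given 100 ng/ml again for 10 min. The labels name no other allele or agent. Ribosome-depleted total RNA of the nuclear fraction, which the labels call nucleoplasmic in one field and nuclear in others, was sequenced from biological replicates 1 and 2, starting from 1 µg and 500 ng of nucleic acid. Both carry the same donor identifier and nothing says that the cultures or animals were separate, so the spread between them may be partly technical. Untreated cells were not analysed here, so no value below is a response to Lipid A.

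Replicate 1 had 24444219 expected counts on genes and replicate 2 had 18051097. The labelled cell type matched its markers: all 10 macrophage markers were detected, with summed levels of 2073 and 1891 TPM in replicates 1 and 2. No marker of T and NK cells, B cells, neutrophils and precursors, fibroblasts, or hepatocytes and adipocytes was detected, and none of these 5 lists summed to more than 0.36 TPM in either library. The nuclear RNAs Malat1 and Neat1 together held 13677 and 20929 TPM.

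The sequences before the start sites show which members carry the letters that SREBP and its partner NF-Y are known to bind. Of the 33 genes, 26 had at least 1 promoter window in RefSeq (GRCm38.p6), in 34 windows running from 250 bases before to 50 after a start, and 7 had none. The runs below are given 5′ to 3′ on the gene's strand and stop at the RefSeq start or at the first annotated exon base of the gene, whichever comes first. Capitals mark the letters TCACNCCAC (a sterol regulatory element), CCAAT (or its reverse complement ATTGG, bound by NF-Y) and CACGTG (an E-box), searched on both strands. Hmgcs1 is shown because it is the member that held the sterol regulatory element letters, and Mvk because it held the most CCAAT letters. Insig1 is shown as the most abundant of 3 genes, with Hsd17b7 and Sc5d, that held CCAAT and E-box letters in the same window, and Srebf1 for its alternative starts. The last 3 genes were chosen after the matches were seen.
Hmgcs1, chr13:119690101-119690350, + strand: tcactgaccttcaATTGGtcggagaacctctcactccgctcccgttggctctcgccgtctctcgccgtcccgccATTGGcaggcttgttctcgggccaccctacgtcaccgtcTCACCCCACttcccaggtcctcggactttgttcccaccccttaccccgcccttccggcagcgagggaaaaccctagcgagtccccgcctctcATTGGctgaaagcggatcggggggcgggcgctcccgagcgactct
Mvk, chr5:114444019-114444268, + strand: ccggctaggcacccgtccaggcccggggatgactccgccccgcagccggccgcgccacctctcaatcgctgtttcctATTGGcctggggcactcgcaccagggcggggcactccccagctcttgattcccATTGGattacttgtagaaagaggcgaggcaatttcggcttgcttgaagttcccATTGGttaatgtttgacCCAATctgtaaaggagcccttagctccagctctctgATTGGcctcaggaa
Insig1, chr5:28071162-28071362, + strand: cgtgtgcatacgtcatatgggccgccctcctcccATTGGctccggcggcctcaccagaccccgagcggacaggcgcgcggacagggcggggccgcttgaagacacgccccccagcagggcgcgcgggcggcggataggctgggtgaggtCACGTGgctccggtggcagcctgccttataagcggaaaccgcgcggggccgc
Srebf1, upstream start, chr11:60220628-60220877, - strand: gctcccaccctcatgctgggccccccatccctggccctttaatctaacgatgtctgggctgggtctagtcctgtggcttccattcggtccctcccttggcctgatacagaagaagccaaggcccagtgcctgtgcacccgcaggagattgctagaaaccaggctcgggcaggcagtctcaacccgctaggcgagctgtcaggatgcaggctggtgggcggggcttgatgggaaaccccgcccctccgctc
Srebf1, downstream start, chr11:60210472-60210721, - strand: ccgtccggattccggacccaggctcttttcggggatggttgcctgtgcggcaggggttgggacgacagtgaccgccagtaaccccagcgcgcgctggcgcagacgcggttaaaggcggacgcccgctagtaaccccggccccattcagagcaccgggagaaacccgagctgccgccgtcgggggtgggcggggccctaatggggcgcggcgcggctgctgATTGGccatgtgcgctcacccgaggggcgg

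CCAAT was the commonest of these letters among the members. It stood in a window of 21 of the 26 genes (80.8%), against 42.6% of 7545 other detected protein-coding genes with a window. Counted by window, 22 of the 34 windows of members (64.7%) held it, against 37.4% of all 32851 windows. The 9 letters of the sterol regulatory element were found in 1 of 26 genes (3.85%), Hmgcs1, at 137 bases before its start. The share was 1.34% of the other detected protein-coding genes. By window it was 2.94% for the members, against 1.24% of all windows. The shorter core CACNCCAC, which every match of the longer letters contains, was held by 3 genes (11.5%), Hmgcs1, Insig1 and Acat2. The share was 7.24% of the other detected protein-coding genes. By window it was 8.82% for the members, against 6.24% of all windows. CACGTG was held by 5 genes (19.2%), namely Hsd17b7, Insig1, Dhcr7, Sc5d and Scap, against 12.5% of the other detected protein-coding genes. By window it was in 17.6% for the members, against 7.15% of all windows. A match is a description of the letters, not evidence of binding, and a window without a match says only that these letters are not in it.

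Nearly all of the pathway was present in the nuclear RNA at modest levels. TPM is a level divided by transcript length and scaled to a fixed total per library, so genes can be compared on it. Detection required both libraries to reach 1 TPM and 10 expected counts. Of the 33 members, 30 were detected, against a background of 42.9% of protein-coding genes. Their median level was 3.88 TPM in replicate 1 and 5.40 TPM in replicate 2, below the medians of 7.30 and 8.56 TPM over the 9443 detected protein-coding genes. In replicate 1, 8 members lay above that median, and in replicate 2, 9 did. These were Scd2, Msmo1, Srebf1, Fads1, Srebf2, Hmgcs1, Acly and Insig1, joined in replicate 2 by Acaca. TPM of protein-coding genes as a whole was lower in replicate 1 (median log2 TPM ratio -0.24), and the TPM values below carry that shift.

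**Figure D1:**
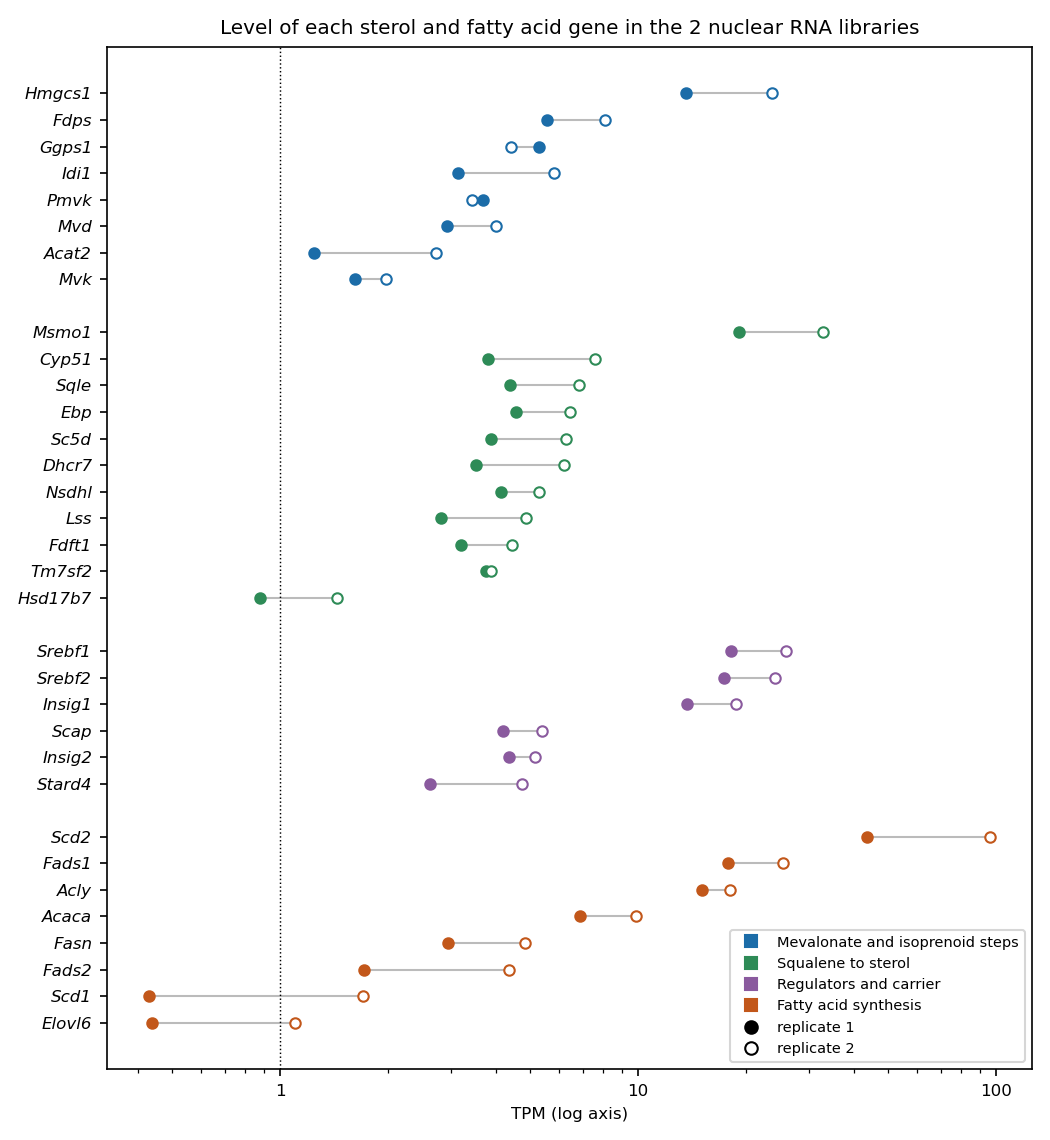
Level of each of the 33 genes in TPM (log axis), grouped by role, with filled points for replicate 1 and open points for replicate 2; the dotted line marks the detection level of 1 TPM. Scd2 stands highest at 43.7 and 96.1 TPM, and Hsd17b7, Scd1 and Elovl6 are under 1 TPM in replicate 1 only.

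The order of the genes was much the same in both libraries, with a Spearman correlation of 0.90 over the 33 genes, which share library, depth and length in each library. Sorted by mean TPM, 29 of the 32 neighbouring pairs had ranges over the 2 libraries that overlapped. The breaks lay between Scd2 and Msmo1, between Insig1 and Acaca, and between Mvk and Hsd17b7. An overlap does not show that an order is uncertain, because 31 members had a higher TPM in replicate 2. Within each library, Msmo1, Srebf1, Fads1 and Srebf2 followed in that order although their ranges overlapped. Other neighbours, such as Hmgcs1 and Acly, changed places between the libraries.

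In the mevalonate and isoprenoid steps, which turn acetyl-CoA into the isoprenoid building blocks of sterols, all 8 genes were detected and the median level was 3.42 TPM in replicate 1 and 4.22 TPM in replicate 2. Hmgcs1 (chromosome 13, 119690379 to 119708260, ENSMUSG00000093930.2), which makes HMG-CoA in the cytosol, was the highest, at 13.6 TPM in replicate 1 and 23.6 TPM in replicate 2 (mean 18.6 ± 7.09, SD, n = 2). Fdps, which makes farnesyl diphosphate, had 5.56 and 8.10 TPM in replicates 1 and 2 (mean 6.83 ± 1.80, SD, n = 2). Ggps1, which makes the geranylgeranyl diphosphate used to anchor small GTPases, had 5.30 and 4.42 TPM (mean 4.86 ± 0.62, SD, n = 2). By these TPM values Hmgcs1 and Fdps were higher in replicate 2 and Ggps1 in replicate 1. In the other quantification Ggps1 had 4.10 and 6.64 TPM in replicates 1 and 2. That TPM was not centred on protein-coding genes, so its order alone does not set the quantifications apart on Ggps1. The log2 ratio of scaled counts of Ggps1, replicate 1 over replicate 2, was -0.03, and -0.06 in the other quantification. Idi1, the isomerase of the isoprenoid units, had 3.14 and 5.84 TPM (mean 4.49 ± 1.91, SD, n = 2).

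The other 4 genes of the group had the lowest mean levels. Pmvk, the phosphomevalonate kinase, had 3.69 TPM in replicate 1 and 3.44 TPM in replicate 2, and with Ggps1 it was the only member higher by TPM in replicate 1. Mvd, the decarboxylase of the stretch, had 2.92 and 4.02 TPM. Mvk, the mevalonate kinase whose window with 5 CCAAT matches is printed above, had 1.62 and 1.98 TPM. Acat2, the cytosolic thiolase that starts the stretch, had 1.24 and 2.73 TPM, and its neighbouring copy Acat3 had 0.29 and 0.56 TPM. Within the stretch, Hmgcs1 stood 8.41 times above Mvk in replicate 1 and 11.9 times in replicate 2.

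In the steps from squalene to sterol, 10 of 11 genes were detected, with a median of 3.81 TPM in replicate 1 and 6.19 TPM in replicate 2. Msmo1 (chromosome 8, 64718139 to 64733792, ENSMUSG00000031604.10), the methylsterol monooxygenase that begins the removal of methyl groups from the sterol ring, stood well above the rest at 19.1 TPM in replicate 1 and 32.8 TPM in replicate 2 (mean 26.0 ± 9.67, SD, n = 2). Its partners in that step were far lower. Nsdhl, the decarboxylating dehydrogenase, had 4.15 and 5.30 TPM, and Msmo1 exceeded it 4.61 times in replicate 1 and 6.19 times in replicate 2. Hsd17b7, the reductase that closes the step, was not detected by the rule, at 0.88 TPM in replicate 1 (143 counts) and 1.44 TPM in replicate 2 (171 counts). It fell short in replicate 1 by level, not by count.

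The other genes of this stretch lay close together. Cyp51, which removes a methyl group from lanosterol and is the target of azole drugs in fungi, had 3.81 TPM in replicate 1 and 7.56 TPM in replicate 2 (mean 5.68 ± 2.65, SD, n = 2). Sqle, the squalene epoxidase, had 4.38 and 6.86 TPM (mean 5.62 ± 1.75, SD, n = 2). Ebp, the sterol isomerase, had 4.55 and 6.47 TPM (mean 5.51 ± 1.36, SD, n = 2). All 3 were higher by TPM in replicate 2.

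The remaining members of the stretch had means between 3.82 and 5.07 TPM. Sc5d, a sterol desaturase, had 3.88 and 6.27 TPM in replicates 1 and 2, and Dhcr7, the reductase of the last step to cholesterol, had 3.52 and 6.19 TPM. Lss, which folds squalene epoxide into lanosterol, had 2.81 and 4.85 TPM. Tm7sf2, a sterol reductase, had 3.75 and 3.88 TPM and differed least of the 11 genes by TPM. Fdft1, squalene synthase, had 3.21 and 4.43 TPM; 18.3% of its exon bases (774 bases) are shared with the cathepsin gene Ctsb on the opposite strand, which held 204012 and 124987 counts, so its level is uncertain unless the counting used strand.

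The regulators and carrier had the highest median of the 4 role groups, at 9.04 TPM in replicate 1 and 12.1 TPM in replicate 2, and all 6 genes were detected. Summed over all transcripts, the genes of both SREBP precursors had nearly equal levels in each library. Srebf1, whose product favours fatty acid genes, had 18.1 and 25.9 TPM in replicates 1 and 2 (mean 22.0 ± 5.50, SD, n = 2). Srebf2, whose product favours sterol genes, had 17.4 and 24.1 TPM (mean 20.8 ± 4.76, SD, n = 2). The ratio of Srebf1 to Srebf2 was 1.04 in replicate 1 and 1.07 in replicate 2. In the other quantification deposited for the same libraries it was 1.43 and 1.08. Over protein-coding transcripts alone the levels were less alike, with 11.6 TPM for Srebf1 and 13.4 TPM for Srebf2 in replicate 1, and 10.4 and 18.9 TPM in replicate 2.

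The retention and escort genes divided into a high and a low set. Insig1, the INSIG gene that is itself a known SREBP target, had 13.7 TPM in replicate 1 and 18.7 TPM in replicate 2 (mean 16.2 ± 3.55, SD, n = 2). Insig2, known to depend less on sterol, had 4.37 and 5.14 TPM, so that Insig1 exceeded it 3.14 times in replicate 1 and 3.64 times in replicate 2, or 1.98 and 2.59 times in the other quantification. Scap, the escort, had 4.19 and 5.40 TPM (mean 4.80 ± 0.86, SD, n = 2). Stard4, which carries cholesterol between membranes in the cytosol, had 2.62 and 4.75 TPM and was the lowest of the group.

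Fatty acid synthesis held both the highest and the lowest members, and 6 of its 8 genes were detected. Scd2 (chromosome 19, 44293674 to 44306864, ENSMUSG00000025203.6), a stearoyl-CoA desaturase that makes monounsaturated fatty acids, had 43.7 TPM in replicate 1 and 96.1 TPM in replicate 2 (mean 69.9 ± 37.1, SD, n = 2), from 9070 and 13960 counts. It alone took 29.7% of the 30573 counts of all members in replicate 1 and 38.9% of 35907 in replicate 2. Scd1, its paralog, which is known as the main form in liver and fat, was not detected, at 0.43 TPM (74.0 counts) and 1.70 TPM (217 counts). Scd2 therefore exceeded Scd1 102 times in replicate 1 and 56.5 times in replicate 2. Scd3 and Scd4, the other mouse desaturase genes of this family, were not detected either, with Scd3 at 0.05 TPM in replicate 1 and listed at 0 in replicate 2, and Scd4 at 0.63 and 0.71 TPM.

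The polyunsaturated desaturases showed a similar split. Fads1 had 17.8 TPM in replicate 1 and 25.4 TPM in replicate 2 (mean 21.6 ± 5.37, SD, n = 2). Fads2, which acts before it on the same fatty acids, had 1.72 and 4.37 TPM. The ratio of Fads1 to Fads2 was 10.3 in replicate 1 and 5.81 in replicate 2.

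The remaining 4 genes make and lengthen the saturated chain. Acly, which makes cytosolic acetyl-CoA from citrate, had 15.07 TPM in replicate 1 and 18.03 TPM in replicate 2 (mean 16.6 ± 2.09, SD, n = 2). Acaca, the carboxylase that makes malonyl-CoA, had 6.90 and 9.87 TPM (mean 8.38 ± 2.10, SD, n = 2). Fasn, which builds palmitate, had 2.94 and 4.83 TPM. Elovl6, which lengthens palmitate, was not detected, at 0.44 TPM (93.0 counts) and 1.10 TPM (164 counts). Among these 4 genes the order from Acly down to Elovl6 was the same in both libraries.

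The libraries differed in the level of this pathway. Ratios between them are log2 ratios of counts scaled by TMM, with 0.5 added to each count, replicate 1 over replicate 2, so that a negative value means lower in replicate 1. There is 1 library on each side and therefore no test, and the 95% intervals given cover counting error only. The median ratio of the 33 members was -0.46, against -0.01 over the 11751 protein-coding genes whose counts averaged 10 or more. The ratio was below 0 for 28 members (84.8%), against a background of 50.6% of protein-coding genes. The counting interval lay wholly below 0 for 19 members, against a background of 26.6%, wholly above 0 for 1, Srebf1, against 27.7%, and held 0 for 13. More than 2-fold lower in replicate 1 were 3 members (9.09%), against a background of 2.14% (from 2 to 5 members under the alternatives), and more than 2-fold higher were 0, against 4.05%. Together the members took 0.125% of the counts on genes in replicate 1 and 0.199% in replicate 2, or 0.088% and 0.122% without Scd2.

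**Figure D2:**
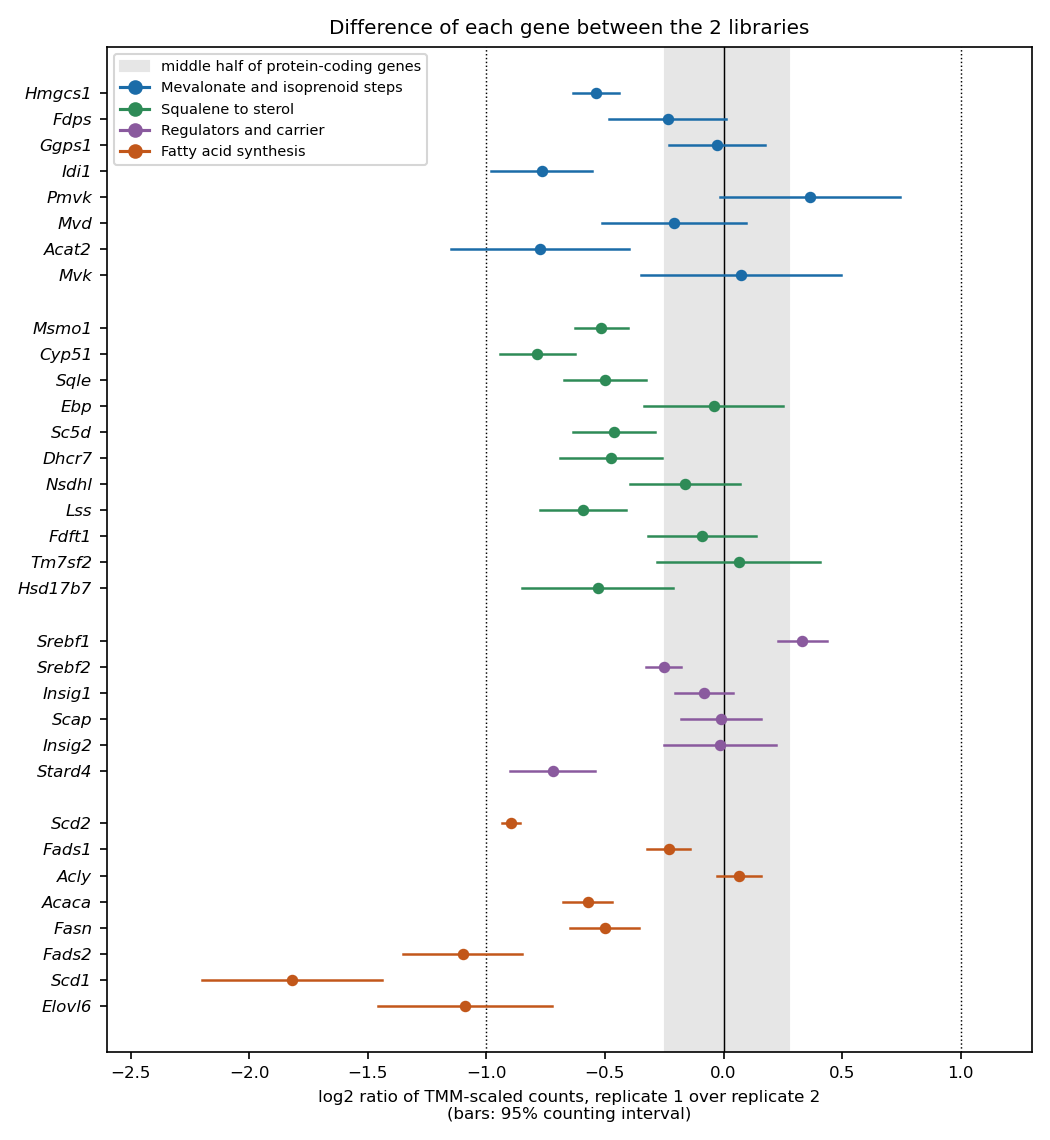
Log2 ratio of TMM-scaled counts, replicate 1 over replicate 2, for each of the 33 genes (points) with its 95% counting interval (bars), coloured by role; the grey band spans the first to the third quartile of protein-coding genes (-0.25 to 0.28) and dotted lines mark 2-fold. Of the 33 points, 28 lie left of 0, and Scd1, Fads2 and Elovl6 lie left of the 2-fold line.

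The difference was deepest in fatty acid synthesis, with a median ratio of -0.73, and 3 of its 8 genes were past 2-fold. Scd1 had the most negative ratio at -1.82 (interval -2.20 to -1.44), 3.53-fold lower in replicate 1. Fads2 had -1.10 (-1.35 to -0.85) and Elovl6 -1.09 (-1.46 to -0.72). These are the least abundant genes of the group, and each had at least 74.0 counts in every library. Scd2, the most abundant, had -0.90 (-0.93 to -0.86), so the low values were not limited to genes with few counts. Of the genes that did not pass the 2-fold line, Scd2 and Cyp51 (-0.79) lay nearest to it.

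The rest of fatty acid synthesis lay nearer to 0. Acaca had -0.57 (-0.68 to -0.47) and Fasn -0.50 (-0.65 to -0.36). Fads1 had -0.23 (-0.32 to -0.14), a smaller difference than that of Fads2. Acly had 0.06 (-0.03 to 0.16), and its interval held 0.

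In the steps from squalene to sterol, 10 of 11 ratios were below 0 and the median was -0.47. Cyp51 had -0.79 (-0.94 to -0.63), Msmo1 -0.52 (-0.63 to -0.41) and Sqle -0.50 (-0.67 to -0.33). Hsd17b7 had -0.53 (-0.85 to -0.21). Lss, Dhcr7 and Sc5d, at -0.59, -0.47 and -0.46, had intervals below 0 as well. The intervals of Ebp (-0.04), Nsdhl (-0.16), Fdft1 (-0.09) and Tm7sf2 (0.06) held 0, and in the other quantification Ebp and Tm7sf2 had the opposite sign, at 0.087 and -0.44.

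The mevalonate and isoprenoid steps had a median ratio of -0.22, and here the genes parted. Acat2 had -0.77 (-1.15 to -0.40), Idi1 -0.77 (-0.98 to -0.56) and Hmgcs1 -0.54 (-0.64 to -0.44). The intervals of the other 5 genes held 0. Among these were Fdps at -0.24 (-0.48 to 0.01), Ggps1 at -0.03 (-0.23 to 0.17) and Pmvk at 0.36 (-0.01 to 0.74). By this measure Pmvk had the highest ratio of all members. By TPM less the median of protein-coding genes, Ggps1 had 0.50 and Pmvk 0.34. Mvd had -0.21, but 0.36 in the other quantification, and Mvk had 0.07.

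The regulators had the median nearest to 0, at -0.05, and its size depended on the setting: it was -0.15 in the other quantification, -0.21 by library totals, -0.22 by centred TPM (TPM less the median of protein-coding genes) and -0.46 by TPM. Stard4 had -0.72 (-0.90 to -0.54) and Srebf2 -0.25 (-0.33 to -0.18). Insig1 had -0.08 (-0.21 to 0.04), Scap -0.01 (-0.18 to 0.16) and Insig2 -0.02 (-0.25 to 0.22), all with intervals that held 0. Srebf1 was the only member with an interval above 0, at 0.33 (0.23 to 0.43), from 1898 counts in replicate 1 and 1247 in replicate 2. By gene-level TPM, Srebf1 was lower in replicate 1, with a log2 ratio of -0.52, or -0.27 after subtracting the median of protein-coding genes. Its direction therefore depended on the measure. Over its protein-coding transcripts alone, TPM was 11.6 in replicate 1 and 10.4 in replicate 2, the order given by the counts.

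Several measures moved with these ratios. All 10 macrophage markers had ratios above 0, from 0.11 to 1.14, though by TPM 7 did and by centred TPM 9. Longer genes had lower ratios: over 10 classes of effective length the median of protein-coding genes went down from 0.24 in the shortest to -0.11 in the longest, and the members' median effective length was 2824 bases, against 2281 over the protein-coding genes compared. After subtracting the median of each member's own length class, 27 members stayed below 0 and their median ratio was -0.40. The starting amount and the total count also differed between the libraries. The part of the starting amount, of depth and of the macrophage genes in the result was not tested.

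Genes that work beside the pathway had medians near or above 0. Detection in each of these lists stands beside a background of 42.9% of protein-coding genes. Of the SREBP cleavage and endoplasmic reticulum degradation genes, 12 of 12 were detected. Their median ratio was 0.06, and it turned to -0.10 by library totals and -0.14 by TPM. In this list 4 ratios (33.3%) were below 0, against a background of 50.6% of protein-coding genes. Its highest members were Aup1, a factor of protein degradation at the endoplasmic reticulum, at 82.9 TPM in replicate 1 and 81.9 TPM in replicate 2, and the ATPase gene Vcp at 45.8 and 54.0 TPM. Mbtps1 and Mbtps2, whose products cut SREBP, had ratios of -0.25 and -0.20 at 12.0 and 15.3 TPM and at 9.60 and 13.2 TPM in replicates 1 and 2.

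Users of isoprenoids (ubiquinone, dolichol and protein prenylation) were detected in 11 of 12, with a median ratio of 0.06 that turned to -0.10 by library totals and -0.062 by TPM. The prenyltransferase subunits Pggt1b and Rabggtb were highest, at 16.5 and 16.2 TPM and at 13.1 and 12.4 TPM in replicates 1 and 2. Fntb, a farnesyltransferase subunit, was just under the detection level at 0.83 and 0.90 TPM. No gene of this list was past 2-fold.

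Genes of acyl chain supply and use were detected in 14 of 19, and their median ratio was 0.01, which turned negative by library totals (-0.15), by TPM (-0.39) and in the other quantification (-0.020). Elovl1, an elongase of very long chains, had 29.3 TPM in replicate 1 and 46.3 TPM in replicate 2, and Tecr, the reductase of the elongation cycle, had 18.7 and 27.5 TPM. Lpin1, a phosphatidate phosphatase and known SREBP target, was past 2-fold at -1.17, with 169 and 315 counts, and was not detected at 0.89 and 2.63 TPM. Acacb and Me1 were not detected, with 0.56 and 0.39 TPM for Acacb and 0.16 and 0.33 TPM for Me1.

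Genes of sterol oxidation, storage and export were detected in 12 of 14, and 8 of the 13 with enough counts had a ratio above 0. The ratio was below 0 for 38.5% of the 13, against a background of 50.6% of protein-coding genes. The median ratio of the list was 0.27, but 0.15 at a mean count of 50 or more, 0.11 by library totals, 0.039 by TPM and 0.43 in the other quantification. Apoe, the apolipoprotein that takes up exported sterol, had 584 TPM in replicate 1 and 294 TPM in replicate 2, a ratio of 1.22. Nr1h3, the gene of the sterol sensor LXRα, had 36.7 and 18.8 TPM, a ratio of 1.24. Npc2, a lysosomal sterol carrier, had 155 and 139 TPM. Yet Abca1, the main exporter and a known LXR target, had 60.8 and 92.1 TPM and a ratio of -0.37, so the list did not move as a block. Ch25h, whose product 25-hydroxycholesterol restrains SREBP, was not detected at 0.41 and 0.28 TPM (19 and 9 counts), nor was Lcat at 0.16 and 0.23 TPM.

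**Figure D3:**
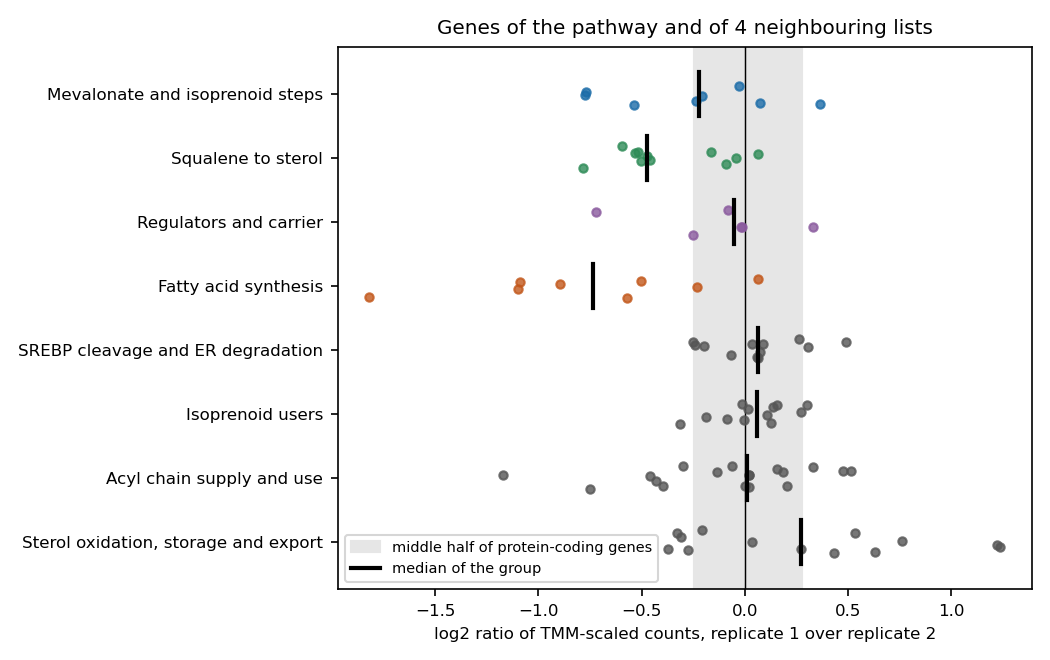
Log2 ratio of TMM-scaled counts, replicate 1 over replicate 2, for the genes of the 4 role groups (coloured) and of 4 neighbouring lists (grey) whose counts averaged 10 or more; black ticks are group medians and the grey band is the first to the third quartile of protein-coding genes. The medians run from -0.73 in fatty acid synthesis to 0.27 in sterol oxidation, storage and export.

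Most members used the same main transcript in both libraries. The transcript with the largest share of the gene's TPM was the same for 30 of 33 genes (26 in the other quantification). For 31 it was protein-coding in both libraries. The same shares over all protein-coding genes were not computed, so these counts do not set the members apart from other genes. For Acat2 the lead passed between coding forms: Acat2-201 held 81.7% in replicate 1 and 28.9% in replicate 2, and Acat2-204 held 9.69% and 66.2%. The assignment SD of these counts was 13.2 and 19.9 for Acat2-201 on 81.6 and 44.4 counts, and the other quantification gave Acat2-204 the lead in both libraries. For Ebp the lead by TPM was the coding Ebp-201 in replicate 1 (52.2%) and the retained-intron form Ebp-202 in replicate 2 (37.7%). By expected counts Ebp-201 led in both, with 71.5% and 55.0%, and the other quantification gave Ebp-201 and then Ebp-204. For Tm7sf2 the lead by TPM was Tm7sf2-205 (31.2%) in replicate 1 and Tm7sf2-201 (31.0%) in replicate 2.

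Msmo1, the most abundant sterol enzyme, was led by a transcript with no annotated reading frame. Msmo1-206, a processed transcript, held 44.6% of its TPM in replicate 1 and 51.2% in replicate 2, and the full coding form Msmo1-201 held 34.7% and 29.7%. By expected counts, which are not divided by length, Msmo1-206 had 31.6% and 36.6% and Msmo1-201 had 40.4% and 34.9%, so the order turned in replicate 1. The coding form alone stood at 6.65 and 9.75 TPM, still above the whole-gene TPM of Nsdhl in both libraries.

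Srebf1 has alternative first exons. RefSeq gives 3 windows for it, and the farthest upstream of them, which is not printed, held CCAAT letters at 166 bases before its start. The coding forms with the most counts begin at the other starts. Srebf1-201 begins at the upstream of these (60220604 on chromosome 11), that of the SREBP-1a form, whose longer activating domain makes it the stronger activator. Srebf1-207 begins at the downstream start (60210465), that of SREBP-1c, the main form in liver. Srebf1-201 held 1432 and 851 counts in replicates 1 and 2, and Srebf1-207 held 225 and 145. The ratio of their counts was 6.36 in replicate 1 and 5.86 in replicate 2, and 3.19 and 3.40 in the other quantification, so the upstream form led by every count. Of the printed Srebf1 windows, the upstream one held none of the searched letters before its start and the downstream one held ATTGG at 30 bases before it.

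The gene-level TPM of Srebf1 rests partly on short noncoding fragments. Srebf1-204, a processed transcript of 367 bases, held 0.26% of the gene's counts in replicate 1 and 2.23% in replicate 2 (4.88 and 27.8 counts), but 4.41% and 26.1% of its TPM. Srebf1-201 itself had 8.84 TPM in replicate 1 and 7.52 TPM in replicate 2, so that by this coding transcript the order of the libraries was that of the counts. A short transcript weighed on the TPM of Acaca as well, there an annotated coding one: Acaca-206, of 431 bases, had 18.6 and 8.80 counts but 31.5% and 15.3% of the TPM in replicates 1 and 2.

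Retained introns, which are common in nuclear RNA, made up a modest part of the TPM of these genes. Of the 33 members, 21 had a retained-intron and a coding transcript annotated and reached 1 TPM in each library. Their median retained-intron share of TPM was 15.7% in replicate 1 and 14.1% in replicate 2, against 26.4% and 27.1% over 5973 protein-coding genes chosen the same way. By expected counts the medians were 4.79% and 7.10%, against 15.1% and 15.5%, but the role groups differed. The count medians were 26.6% and 27.7% in the steps from squalene to sterol, above that background. They were 17.5% and 13.9% in the mevalonate steps. Regulators had 3.38% and 4.88%, and fatty acid synthesis had 3.43% and 3.45%. In the other quantification the medians of all 21 members were 23.1% and 24.3% of TPM, against 31.5% and 31.8%. By TPM the range over the members ran from 2.75% for Cyp51 to 56.7% for Ebp, as the mean of both libraries. The order of single members depended on the quantification. In the other quantification Ebp stayed highest, with a mean of 59.6%, and Stard4 followed at 59.4%. Stard4 had 64.2% and 54.5% there in replicates 1 and 2, against 9.92% and 7.35% by the first TPM. Cyp51 had 19.2% and 1.88% there, so it was not the lowest.

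Of the 4 highest shares by TPM, 3 belonged to the steps from squalene to sterol, which held 9 of the 21 genes compared. Ebp had 47.8% in replicate 1 and 65.5% in replicate 2, and Lss had 48.4% and 50.9%. Sqle had 31.3% and 37.2%, mostly from Sqle-204, a form that runs over most of the gene. Fasn had 29.4% and 27.7%, but only 3.26% and 3.39% of its counts. By counts Ebp had 28.5% and 45.0%, less than by TPM. For Lss and Sqle the share by counts was larger than by TPM, at 55.6% and 54.4% for Lss and at 38.6% and 47.6% for Sqle. By TPM, Msmo1 and Hmgcs1, the highest sterol genes, had 15.7% and 16.2% and 11.4% and 13.1%. The 4 highest by TPM were not the 4 highest by every measure. Tm7sf2, which is not among them, had 42.8% and 37.2% of its counts in replicates 1 and 2. In the other quantification it had 39.5% and 60.1% of its TPM, and Fasn had 28.1% and 24.5%.

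**Figure D4:**
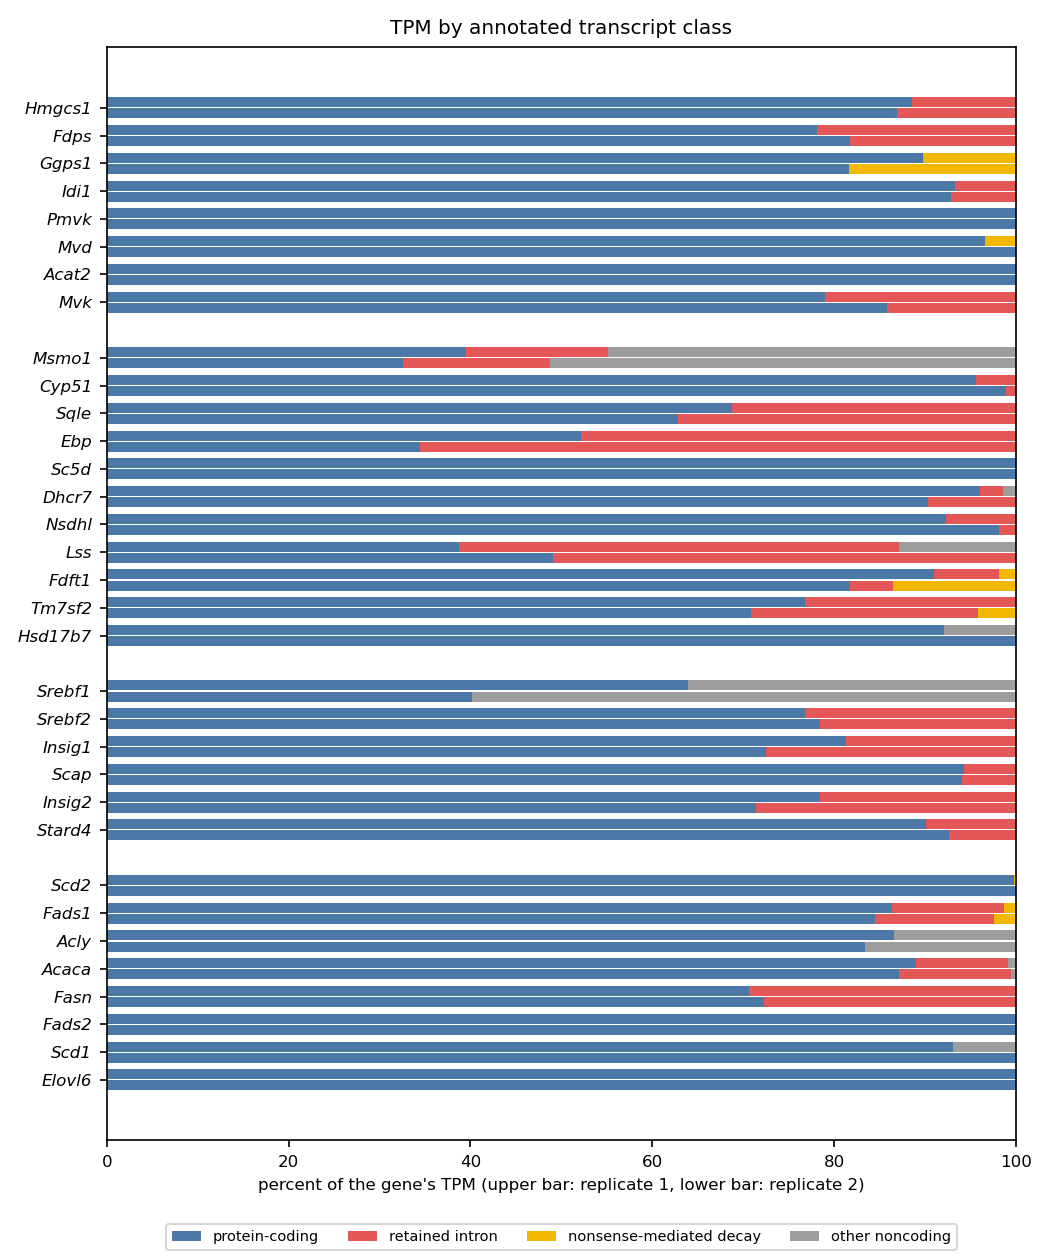
Share of each gene's TPM, in percent, by the annotated class of its transcripts: protein-coding, retained intron, nonsense-mediated decay or other noncoding, with the upper bar of each pair for replicate 1 and the lower for replicate 2. Ebp and Lss show the widest retained-intron part, and Msmo1 and Srebf1 the widest other noncoding part.

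Some members share sequence with other genes. Of the 33, 12 share exon bases with an overlapping gene, and the same share over all genes was not computed. Whole-number counts (within 0.005) in both libraries were found for 20 members, against 70.9% of detected protein-coding genes. The counts of the other 13 held a fraction in at least 1 library. Besides Fdft1, the shared bases were 13.2% of the exon bases of Scap, 12.1% of those of Hmgcs1 and of Tm7sf2, and 26.7% of those of Fdps, whose overlapping gene had 0 counts in both libraries. Tm7sf2 and Vps51 lie on the same strand, so strand would not separate them.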

How the data were processed

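RNA-seq of the nuclear fraction was deposited for 2 libraries, biological replicates 1 and 2 of 1 group. The deposited gene tables hold, per the file headers, an expected count (an estimate, often with a fraction) and a TPM per gene, and the transcript tables add the percent of the gene's TPM. The other quantification, a second deposited table per library, holds an estimated count and a TPM per transcript, summed per gene here. Per the deposited file descriptions the build was mm10 with GENCODE M21, and the first kind came from an alignment to the transcriptome. The aligner, the quantifier, their versions and the strand setting are not given in the sources used. TPM covers every target, so abundant short RNAs lower all other genes' values.

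Expected counts were rounded for edgeR 4.0.16 (TMM factors 0.945 and 1.06 over the 15439 genes averaging 10 or more counts) and DESeq2 1.42.0 (an alternative), and were checked on simulated data. Entries that name no gene, with 1.06% and 0.245% of counts in replicates 1 and 2, were left out. Intervals are 95% Poisson intervals of the log2 ratio and cover counting error only. With 1 group of 2 libraries no test was made, and an exact two-sided test could not go below p = 0.5. Coordinates came from GENCODE M21, promoter windows from RefSeq, GRCm38.p6, which is the same assembly as mm10.

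The members and lists were chosen with earlier results of these data known. Every member is listed. The rule for full statistics takes the 4 highest members of each role group, each undetected member, each member past 2-fold and the 4 with the highest retained-intron share. From each other list it takes the 2 highest, undetected genes (at most 4) and those past 2-fold (at most 2). Genes outside the rule, among them Mbtps1, Mbtps2 and Abca1, were named after their values were seen. Alternatives covered scaling, thresholds, added counts, length, quantification and leaving out a replicate.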

Additional observations from a re-analysis of the deposited data

How the results depend on the processing

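No paired analysis was possible because the replicates form a single group with nothing to pair across. Each ratio rests on 1 library a side, has no test, and shows only how these libraries differ. Library totals in place of TMM moved the median of protein-coding genes by -0.17 and TPM moved it by -0.24, so ratios under these settings carry that shift.

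The members' lower level in replicate 1 kept its direction throughout. Their median ratio ran from -0.62 (library totals) to -0.30 (TPM less the protein-coding median, an alternative chosen after seeing the data), and 27 to 31 of 33 were below 0. In place of 3 members past 2-fold lower there were 5 by TPM, 4 by library totals, and 2 by length class and in the other quantification. By library totals the medians were -0.21 for regulators and -0.90 for fatty acid synthesis. By TPM they were -0.50 for mevalonate steps, -0.69 for squalene to sterol, -0.46 for regulators and -0.93 for fatty acid synthesis; centred TPM gave -0.22 for regulators.

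Signs changed in 3 lists with medians near 0 and in single genes, not all of which are named here. SREBP cleavage genes had -0.10 by library totals and -0.14 by TPM, isoprenoid users -0.10 and -0.062, and acyl chain genes -0.15 and -0.39, with -0.15 by centred TPM and -0.020 in the other quantification. Srebf1, whose counting interval lay above 0, reversed to -0.52 by TPM and -0.27 by centred TPM. In the other quantification Mvd turned to 0.36, Tm7sf2 to -0.44 and Ebp to 0.087. By TPM, Ggps1 turned to 0.26, Mvk to -0.29, Acly to -0.26 and Tm7sf2 to -0.049. Apart from Srebf1, the genes just named had counting intervals that held 0. Sterol export genes had 0.11 by library totals, 0.039 by TPM, 0.43 in the other quantification, and 0.15 with no count filter or a minimum of 50.

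At a TPM of at least 5, 10 members were detected. The median log2(mean TPM + 1) in the other quantification was 2.04 for all members, 1.89 for mevalonate steps, 1.90 for squalene to sterol, 2.78 for regulators and 2.24 for fatty acid synthesis. With a pseudocount of 0.1 the mevalonate value was 2.04, and among members that reached 1 TPM in each library the fatty acid value was 3.68. Leaving out a replicate gave 2.14 to 2.38 for mevalonate steps, and 14.1% to 15.7% for the retained-intron share. That share was 25.2% in the other quantification and 6.20% by expected counts. The core letters gave 3 genes in place of 1. Beyond the constructions just named, the cause of these shifts was not tested. Of the single-gene values, 29 of 66 moved in the other quantification and 17 of 33 by TPM.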
